A study of Danio rerio with 6 samples.

Results

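The molecular chaperone genes of zebrafish heart cells were described here by the compartment in which their proteins work. The members were all rows of the deposited expression table whose gene symbol begins as a heat shock protein (hspa, hspb, hspd, hspe, hsph, hsp70 or hsp90), a J-domain protein (dnaj), a protein disulfide isomerase (pdia or p4hb), a calreticulin or calnexin (calr or canx), a chaperonin subunit (cct or tcp1), the collagen chaperone serpinh1, an FK506-binding protein (fkbp), hyou1 or sdf2. This rule found 123 of the 25089 rows, each with its own symbol, and 110 of them passed the filter on low values. By known location, 38 members were placed in the endoplasmic reticulum, 59 in the cytosol and 10 in mitochondria, and 16 were nuclear, of unsettled place or set apart by name. The set apart row hspb11 (ENSDARG00000002204) is named hspb9l, a small heat shock protein, in the table of gene identifiers, and it is reported on its own.

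The regenerating group comprised 3 libraries of sorted cells, labelled as cardiomyocytes, from ventricle apexes taken 5 days after the apex was resected, and the uninjured group comprised 3 libraries from hearts without that injury. All 6 came from a line labelled Gata4:GFP, so the fluorescent reporter that guided the cell sorting is shared by both groups. Injury tissue was cleared away before dissociation, per the labels' protocols, which name no regulatory fragment for the reporter and no separate animals for each library. The p-values therefore rest on how far these libraries spread, and that spread may be technical.

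Chaperones bind unfolded protein and help it reach its working shape. In the endoplasmic reticulum they handle proteins bound for membranes and for secretion, including collagen, together with enzymes that form disulfide bonds and turn proline bonds. In the cytosol of heart muscle, HSP70, HSP90, the ring-shaped chaperonin CCT and the small heat shock proteins serve the folding of myosin, actin and tubulin and protect the contractile apparatus. In mitochondria, HSP60 and HSP10 form a folding chamber, and the mitochondrial HSP70 draws imported proteins through the inner membrane.

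Levels are given as scaled FPKM, fragments per length of transcript and per library total, after each library was divided by a median ratio to the others. They can be compared between genes per length. Reads per gene and library are unknown, so errors come from replicate spread, and the authors' mean normalised count gives the depth of a gene over all libraries. Mitochondrially encoded transcripts took 10.3% to 18.8% of FPKM in regenerating libraries and 21.8% to 41.9% in uninjured libraries, and the median of all tested genes moved by 0.50 on the log2 scale without the scaling and by 0.05 with it. All members together held 0.827% to 1.24% of FPKM in regenerating libraries and 0.585% to 0.796% in uninjured libraries. The total behind these shares includes the mitochondrially encoded transcripts, which took more of the uninjured libraries, so the shares cannot be read as scaled levels. The 10 cardiomyocyte markers examined were detected in every library, with summed levels of 3661 to 7930 scaled FPKM in regenerating and 5805 to 12488 in uninjured libraries, and 3 of them (mybpc3, ryr2b and ttn.2) fell. In bulk libraries fewer cells of a type and less RNA per cell cannot be told apart.

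Of the 21 members that rose in regenerating libraries, 18 were endoplasmic reticulum chaperones. Of 37 tested in that compartment, these 18 rose, none fell and 19 did not pass (limma, adjusted p below 0.05). Over all 13363 tested genes 11.4% passed, with 7.49% higher and 3.93% lower. Of 54 cytosolic members tested, 3 rose and 2 fell, and of 8 mitochondrial members none passed. The median log2 change was 0.87 for endoplasmic reticulum members, 0.10 for cytosolic members and 0.47 for mitochondrial members, beside 0.05 for all tested genes. Of the 37 endoplasmic reticulum members 1, dnajc14, exceeded 1 FPKM in no uninjured library and so passed the filter through the regenerating libraries alone. In all, 6 of the 37 exceeded 1 FPKM in fewer than 3 uninjured libraries and needed regenerating libraries to pass the filter. These 6 include dnajc14 and fkbp11, which is among the 18 that rose. With an unadjusted p below 0.05, 26 members of that compartment were higher and 0 lower by limma. The share of all genes at that unadjusted threshold was not computed, so this count has no background beside it. The libraries of the groups did not overlap for 26 of the 37, all higher in regenerating libraries, where this held for 19.1% of all genes as higher and 13.7% as lower.

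The count of 18 depended on which libraries were used. It was 6 without regenerating replicate 1 and 10 without regenerating replicate 2, and from 13 to 19 without any other single library. Calls over all genes dropped as well in the fits that gave 6 and 10, where 2.02% and 2.99% were higher. The authors' deposited table lists 18 endoplasmic reticulum members as higher at an adjusted p below 0.05, against 4.84% of the 21504 genes with counts, and they were the same 18. With FPKM left unscaled 27 passed as higher. In that fit 25.1% of all genes passed, 23.6% as higher and 1.5% as lower.

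**Figure D1:**
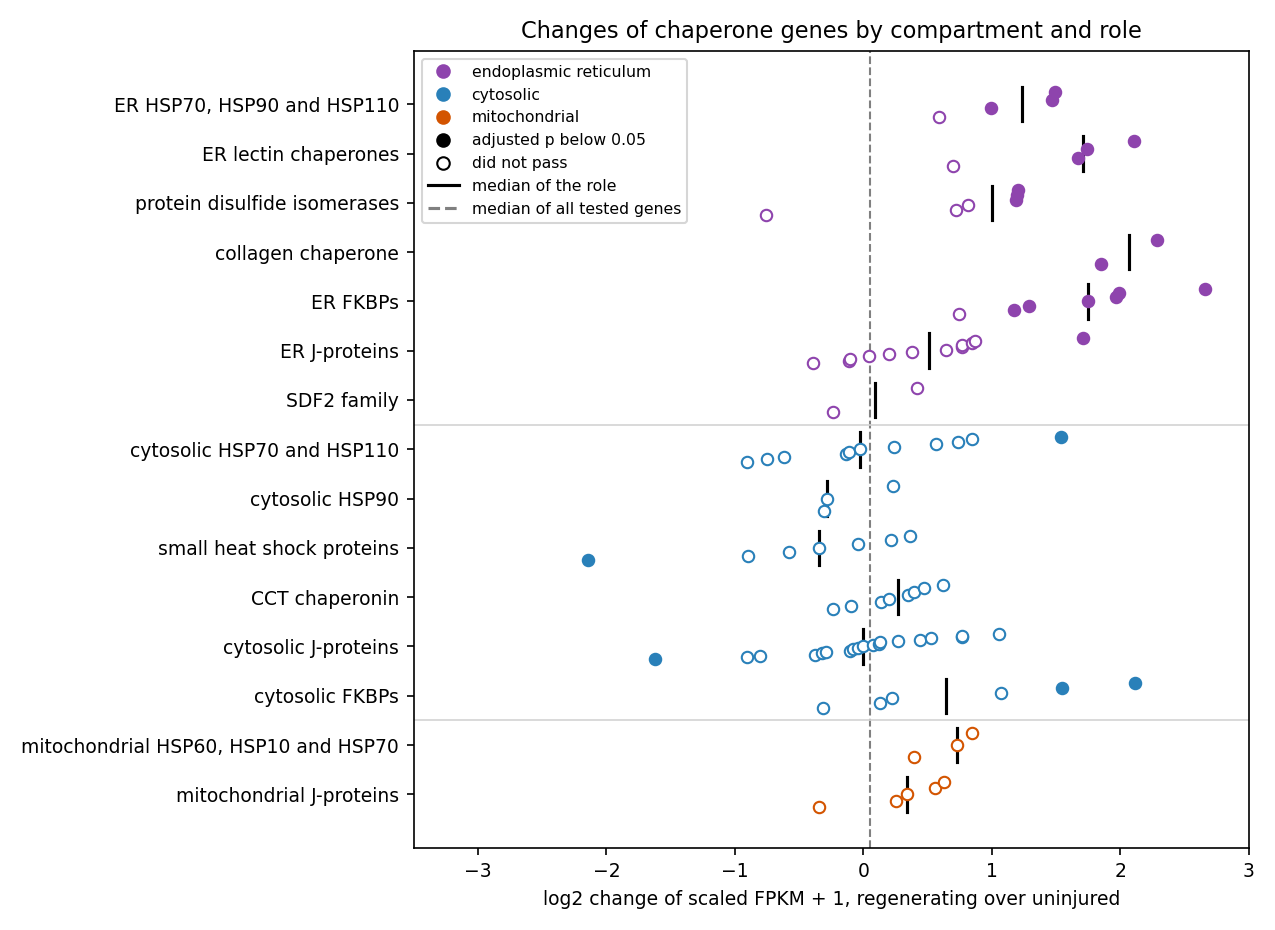
Log2 change of each tested endoplasmic reticulum, cytosolic and mitochondrial member, regenerating over uninjured. Points are on the log2(scaled FPKM + 1) scale (x axis) and grouped by compartment and role (y axis). The 11 tested members outside these compartments, among them hspb11, which fell, are not shown. Filled points passed an adjusted p of 0.05, black bars are medians of each role and the dashed line is the median of all 13363 tested genes at 0.05. Of the 37 endoplasmic reticulum members 32 lie above 0, while cytosolic members lie on both sides of it.

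Of 4 general folding machines of the endoplasmic reticulum 3 rose. The gene hspa5 (ENSDARG00000103846) encodes BiP, the HSP70 of this compartment, and measured 191, 129 and 114 scaled FPKM in regenerating libraries, against 59.5, 44.6 and 48.1 in uninjured libraries. Its HSP90 counterpart hsp90b1 (ENSDARG00000003570) measured 57.4, 56.8 and 37.8 scaled FPKM in regenerating libraries, against 21.7, 15.6 and 14.6 in uninjured libraries. In neither gene did the groups overlap, and in both the lowest regenerating library was regenerating replicate 3. The log2 change was 1.47 for hspa5 (SE 0.26, limma adjusted p = 0.00906) and 1.49 for hsp90b1 (SE 0.27, limma adjusted p = 0.00909). The gene hyou1, whose protein exchanges nucleotide on BiP, measured 13.6, 11.9 and 14.2 scaled FPKM in regenerating libraries, against 8.26, 5.54 and 4.96 in uninjured libraries. It rose by a smaller amount (log2 change 0.996, SE 0.27, limma adjusted p = 0.0399). The fourth member of this role, hspa13, measured 5.60 ± 0.276 scaled FPKM in regenerating and 3.42 ± 0.670 in uninjured libraries (SD, n = 3; limma adjusted p = 0.184) and did not pass. The calls for hspa5 and hsp90b1 were lost without regenerating replicate 1, and that for hyou1 was lost without any 1 of 5 libraries and kept without uninjured replicate 1.

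Calreticulins, lectin chaperones that hold newly made glycoproteins until they fold, rose by 1.67 to 2.10 on the log2 scale. The most abundant, calr3a (ENSDARG00000103979), measured 88.7, 95.5 and 73.3 scaled FPKM in regenerating libraries, against 29.6, 16.4 and 31.2 in uninjured libraries. Its paralog calr3b (ENSDARG00000102808) measured 54.8, 45.1 and 45.6 scaled FPKM in regenerating libraries, against 14.8, 6.06 and 12.6 in uninjured libraries. Every regenerating library was above every uninjured one for both, and uninjured replicate 2 was the lowest of the 6. Their log2 changes were 1.74 (SE 0.29) and 2.10 (SE 0.32), with limma adjusted p-values of 0.00609 and 0.00419. A further calreticulin row, calr, measured 17.5, 18.1 and 18.4 scaled FPKM in regenerating libraries, against 9.94, 3.69 and 3.14 in uninjured libraries. Its regenerating libraries lay close together, and uninjured replicate 1 stood well above the other uninjured libraries (log2 change 1.67, SE 0.36, limma adjusted p = 0.0191). The call for calr was lost without any 1 of 5 libraries and kept without uninjured replicate 1. The membrane-bound relative calnexin, canx, measured 29.8 ± 3.04 scaled FPKM in regenerating and 18.4 ± 5.55 in uninjured libraries (SD, n = 3). Its groups did not overlap, but the change of 0.70 (SE 0.26) did not pass (limma adjusted p = 0.126). It passed without scaling (1.28, limma adjusted p = 0.0120) and without uninjured replicate 1 (0.93, limma adjusted p = 0.0398). Related calreticulin rows may share reads, so their separate levels are uncertain.

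Among 6 protein disulfide isomerase genes, whose enzymes form and rearrange disulfide bonds, 3 rose and 3 did not pass. The most abundant, pdia3 (ENSDARG00000102640), works with calreticulin and calnexin and measured 106, 112 and 93.0 scaled FPKM in regenerating libraries, against 44.3, 62.5 and 31.8 in uninjured libraries. The related pdia4 measured 50.5, 33.1 and 34.4 scaled FPKM in regenerating libraries, against 15.7, 18.4 and 15.2 in uninjured libraries. The third riser, pdia6, measured 34.7, 31.5 and 32.7 scaled FPKM in regenerating libraries, against 17.5, 11.9 and 12.4 in uninjured libraries. The groups did not overlap in pdia3, pdia4 or pdia6. All 3 had log2 changes near each other, at 1.196 (SE 0.28), 1.19 (SE 0.25) and 1.204 (SE 0.24), with limma adjusted p-values of 0.0235, 0.0171 and 0.0141. The gene p4hb, which encodes the founding enzyme and also a subunit of collagen prolyl 4-hydroxylase, measured 71.7, 72.0 and 58.9 scaled FPKM in regenerating libraries, against 36.7, 46.8 and 38.4 in uninjured libraries. Its groups did not overlap either, and its change of 0.72 (SE 0.23) missed the threshold (limma adjusted p = 0.0704). By contrast pdia2 measured 1.74 ± 1.38 scaled FPKM in regenerating and 3.53 ± 1.92 in uninjured libraries (SD, n = 3), with overlapping groups and a change of -0.76 (SE 0.41) (limma adjusted p = 0.266). The call for pdia4 was lost without regenerating replicate 1, that for pdia6 without regenerating replicate 1 or 3, and that for pdia3 without any 1 regenerating library or uninjured replicate 3.

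Both genes of the collagen chaperone rose. The protein, HSP47, binds the procollagen triple helix in the endoplasmic reticulum. The row serpinh1b (ENSDARG00000019949) measured 82.1, 108 and 105 scaled FPKM in regenerating libraries, against 20.4, 26.2 and 34.2 in uninjured libraries. The row serpinh1a (ENSDARG00000075954) measured 27.7, 26.3 and 25.5 scaled FPKM in regenerating libraries, against 4.15, 3.597 and 6.56 in uninjured libraries. Regenerating libraries were far above uninjured ones in both paralogs, and both calls held without any 1 library. The log2 change was 1.85 (SE 0.26) for serpinh1b and 2.29 (SE 0.27) for serpinh1a (limma adjusted p = 0.00290 and 0.00136). The level of serpinh1b was 2.96, 4.10 and 4.10 times that of serpinh1a in regenerating libraries, against 4.91, 7.29 and 5.21 times in uninjured libraries. The paralog with the lower level thus made up more of the sum in regenerating libraries, with groups that did not overlap (two-sided exact permutation p = 0.1, which is the lowest p that 3 against 3 can give, and 0.114 adjusted over the 8 ratios computed for chosen pairs).

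The FK506-binding proteins of the endoplasmic reticulum, which turn proline bonds during folding, rose in 6 of 7 genes. The most abundant, fkbp9 (ENSDARG00000005023), measured 72.3, 125 and 64.7 scaled FPKM in regenerating libraries, against 16.1, 8.10 and 14.4 in uninjured libraries, the steepest rise of the 110 tested members (log2 change 2.66, SE 0.33, limma adjusted p = 0.00183). Regenerating replicate 2 was the highest library and uninjured replicate 2 the lowest. The gene fkbp7 measured 59.0, 55.2 and 51.4 scaled FPKM in regenerating libraries, against 11.1, 13.52 and 15.9 in uninjured libraries. Its regenerating libraries differed little among themselves (log2 change 1.96, SE 0.23, limma adjusted p = 0.00147). The calls for fkbp7 and fkbp9 held without any 1 library. The gene fkbp10b, whose mammalian counterpart acts on procollagen, measured 26.2, 35.5 and 30.5 scaled FPKM in regenerating libraries, against 12.9, 4.18 and 10.4 in uninjured libraries (log2 change 1.75, SE 0.36, limma adjusted p = 0.0159). A shorter relative, fkbp2, measured 46.6, 53.4 and 42.3 scaled FPKM in regenerating libraries, against 26.1, 17.3 and 18.7 in uninjured libraries (log2 change 1.17, SE 0.25, limma adjusted p = 0.0168). The calls for fkbp10b and fkbp2 were lost without regenerating replicate 1 or 2. The remaining risers, named after their values were seen, were fkbp14 at 1.29 (SE 0.32) and fkbp11 at 1.99 (SE 0.45) (limma adjusted p = 0.0317 and 0.0213). In uninjured libraries fkbp11 measured 0.701, 0.768 and 2.52 scaled FPKM, where genes with no counts would show about 0.228 at its length, so its fold change is uncertain. The paralog fkbp10a had a log2 change of 0.74 (SE 0.25) and did not pass (limma adjusted p = 0.0902).

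**Figure D2:**
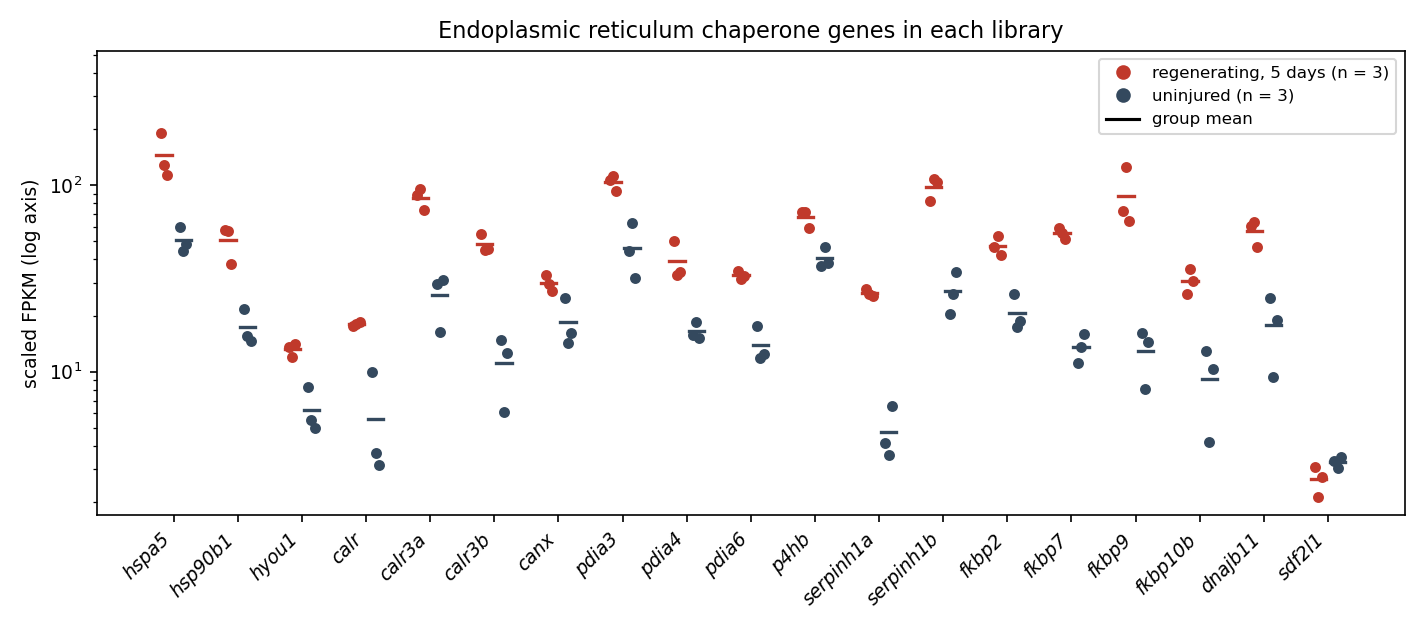
Scaled FPKM (y axis, log scale) of 19 endoplasmic reticulum chaperone genes (x axis) in each regenerating library (left of each pair) and each uninjured library (right), with horizontal bars at group means (n = 3 each). The groups do not overlap for any gene shown other than sdf2l1, whose regenerating mean of 2.65 is below its uninjured mean of 3.28. Most genes shown are members that passed, so this separation follows in part from their choice. Of all 37 tested members of this compartment, 26 had groups that did not overlap, all higher, where 19.1% of all tested genes did as higher.

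J-domain proteins of the endoplasmic reticulum, which pass clients to BiP or help draw out misfolded ones, passed in 1 of 12 tested genes. That share of 8.33% is near the 7.49% of all tested genes that were higher. The gene that rose was dnajb11 (ENSDARG00000015088), the abundant soluble partner of BiP, at 60.5, 63.9 and 46.5 scaled FPKM in regenerating libraries, against 24.8, 9.42 and 19.0 in uninjured libraries. Its groups did not overlap (log2 change 1.71, SE 0.34, limma adjusted p = 0.0131), and the call was lost without regenerating replicate 1 or 2. The median log2 change of the role was 0.51, with single changes from -0.39 (dnajc16l) to 1.71. The stress-inducible dnajb9a measured 3.81 ± 0.170 scaled FPKM in regenerating and 1.82 ± 1.11 in uninjured libraries, and dnajb9b 6.29 ± 3.81 scaled FPKM in regenerating and 3.21 ± 2.29 in uninjured libraries (SD, n = 3 each). Neither passed (limma adjusted p = 0.131 and 0.336). The SDF2 family, which joins BiP and dnajb11 in a complex, did not pass either. The row sdf2l1 measured 3.07, 2.13 and 2.74 scaled FPKM in regenerating libraries, against 3.32, 3.05 and 3.48 in uninjured libraries. Its groups overlapped, and its change was -0.24 with the scaling but 0.22 without it (limma adjusted p = 0.602 and 0.615).

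Markers of fibroblasts and of the epicardium moved with the endoplasmic reticulum members. Of 10 such markers, 9 rose, with a median log2 change of 2.97, where 7.49% of all tested genes were higher. The exception, pdgfra, had a log2 change of -0.30 (SE 0.34) and did not pass (limma adjusted p = 0.612). The 10 markers summed to 1284 to 1390 scaled FPKM in regenerating libraries and 114 to 257 in uninjured libraries. No marker was at 0 in any library, but genes with no counts also show values above 0 here, so this does not show detection. The lowest value among these 10 was 0.384 scaled FPKM, for tbx18 in uninjured replicate 2. Collagen genes are on that list, and their part and that of these cells in the rise of the chaperones was not tested. Of 6 endothelial and endocardial markers, 3 rose, with sums of 50.4 to 107 in regenerating and 49.0 to 74.6 scaled FPKM in uninjured libraries. The erythrocyte markers summed to 319 to 939 in regenerating and 12.8 to 408 scaled FPKM in uninjured libraries, with 1 of 5 higher. None of 4 tested macrophage and leukocyte markers passed.

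Few cytosolic chaperones passed, in either direction. Of 54 tested, 3 rose, 2 fell and 49 did not pass, shares of the size found among all genes (7.49% higher and 3.93% lower). Without scaling 13 of the 54 passed as higher and 1 as lower, where 23.6% of all genes were higher and 1.5% lower. The authors' deposited table lists 3 higher and 7 lower cytosolic members, where 4.84% of its genes were higher and 4.62% lower. The 7 were hspb6, hspb7, hspb8, hsp70l, hspa12b, dnajb2 and dnajb4, of which hspb6 and dnajb4 fell by limma.

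The constitutive HSP70 gene hspa8 (ENSDARG00000068992), the most abundant chaperone in the regenerating libraries by mean level, measured 799, 497 and 640.5 scaled FPKM in regenerating libraries, against 461, 302 and 397 in uninjured libraries. The groups did not overlap, by a narrow margin between regenerating replicate 2 and uninjured replicate 1. Its change of 0.73 (SE 0.27) did not pass with the scaling (limma adjusted p = 0.118) and did without it (1.35, limma adjusted p = 0.0161). The atypical HSP70 relative hspa12a (ENSDARG00000070603) was the member of this role that rose, at 20.2, 21.7 and 20.5 scaled FPKM in regenerating libraries, against 5.61, 6.52 and 7.44 in uninjured libraries. Regenerating libraries were tightly grouped and well apart from uninjured ones (log2 change 1.54, SE 0.24, limma adjusted p = 0.00437), and the call held without any 1 library. Heat-inducible rows did not pass by limma. Named after their values were seen, hsp70.3 had a log2 change of 0.24 (SE 0.29), hsp70.2 one of -0.14 (SE 0.32) and hsp70l one of -0.90 (SE 0.33) (limma adjusted p = 0.648, 0.818 and 0.113). Without scaling the values were 0.47 for hsp70.2 and -0.30 for hsp70l. The authors' deposited table lists hsp70l as lower (log2 fold change -0.94, adjusted p 0.0341), and its groups did not overlap. These near-identical copies may share reads, so their separate levels are uncertain.

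None of the 3 cytosolic HSP90 genes passed, where 11.4% of all tested genes did. The abundant hsp90ab1 (ENSDARG00000029150) measured 237, 219 and 212 scaled FPKM in regenerating libraries, against 230.4, 320.3 and 269.5 in uninjured libraries. Its groups overlapped, and its change was -0.28 with the scaling and 0.33 without it (limma adjusted p = 0.464 and 0.495). In zebrafish striated muscle hsp90aa1.1 folds myosin, and it measured 11.6, 15.97 and 17.3 scaled FPKM in regenerating libraries, against 48.4, 17.9 and 6.98 in uninjured libraries. Uninjured libraries covered a far wider range than regenerating ones and enclosed them, so a difference was not detectable between these libraries (log2 change -0.31, SE 0.54, limma adjusted p = 0.758; 0.26 without scaling). The related row hsp90aa1.2 had a log2 change of 0.23 (SE 0.34). For unc45b, which works with hsp90aa1.1 on myosin, the log2 change was -0.65 (SE 0.32) (limma adjusted p = 0.230).

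Small heat shock proteins, which hold unfolding proteins and are abundant in muscle, had a median log2 change of -0.34 over 7 tested genes. The row hspb6 (ENSDARG00000077236) fell, at 23.5, 13.3 and 23.9 scaled FPKM in regenerating libraries, against 105, 102 and 67.9 in uninjured libraries. Every regenerating library was below every uninjured one (log2 change -2.14, SE 0.30, limma adjusted p = 0.00286), and the call held without any 1 library and without scaling. The row hspb11 (ENSDARG00000002204), counted outside the cytosolic set, also fell, at 66.4, 47.3 and 79.7 scaled FPKM in regenerating libraries, against 318, 407 and 156 in uninjured libraries. Uninjured replicate 2 was the highest library, and the groups did not overlap (log2 change -2.10, SE 0.36, limma adjusted p = 0.00779). With it the cytosolic members that fell numbered 3, by an alternative chosen after seeing the data. The cardiac gene hspb7 measured 173, 137 and 278 scaled FPKM in regenerating libraries, against 479, 344 and 259.5 in uninjured libraries. Regenerating replicate 3 was above uninjured replicate 3, and the change of -0.90 (SE 0.33) did not pass (limma adjusted p = 0.110). The authors' deposited table gives hspb7 an adjusted p of 0.0239, and hspb8, named after its value was seen, one of 0.00105. By limma the log2 change of hspb8 was -0.58 (SE 0.29) with the scaling and 0.01 without it. The broadly expressed hspb1 measured 272, 249 and 385 scaled FPKM in regenerating libraries, against 309, 269 and 200.5 in uninjured libraries, with overlapping groups (log2 change 0.21, SE 0.27, limma adjusted p = 0.654). Cardiomyocyte markers moved the same way as hspb6, with 3 of 10 lower and a median change of -0.88. Over all tested genes 3.93% were lower. Of 4 thrombocyte markers 2 fell, with sums of 78.4 to 134 scaled FPKM in regenerating and 198 to 372 in uninjured libraries. The lowest value of these cardiomyocyte and thrombocyte markers was 3.94 scaled FPKM, for ryr2b in regenerating replicate 1. The part of these markers in the fall of hspb6 and hspb11 was not tested.

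The chaperonin CCT, an 8-subunit ring that folds actin and tubulin, did not pass for any of its 8 rows. Over all tested genes 11.4% passed, so none of 8 is near that share. The most abundant by scaled FPKM, cct8 (ENSDARG00000008243), measured 65.0, 73.1 and 64.9 in regenerating libraries, against 108, 86.3 and 54.2 in uninjured libraries. Another subunit gene, tcp1, measured 16.2, 9.04 and 15.2 scaled FPKM in regenerating libraries, against 10.3, 8.07 and 6.51 in uninjured libraries. Groups overlapped in both. Changes ran from -0.24 (cct8) to 0.62 (tcp1), with a median of 0.27. Even unadjusted, no row had a limma p below 0.05, a threshold for which no share of all genes was computed. The authors' deposited table lists none, where 4.84% of its genes were higher and 4.62% lower. Without scaling, 4 of 8 rows passed as higher, where 23.6% of all genes did, and cct8 was at 0.37. The row cct2 had a mean normalised count of 0.645 and is too shallow to read. The rank of cct8 holds for FPKM only. Its row is 743 nt long against 1931 nt for cct6a, which had the higher mean normalised count (680 against 441).

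Of 19 cytosolic J-domain genes, 1 fell and none rose, where 3.93% of all tested genes were lower and 7.49% higher. The gene that fell was dnajb4 (ENSDARG00000038978), an HSP70 partner. It measured 4.95, 2.15 and 4.04 scaled FPKM in regenerating libraries, against 9.62, 16.4 and 13.9 in uninjured libraries. No regenerating library reached the lowest uninjured one (log2 change -1.62, SE 0.32, limma adjusted p = 0.0136). Its call was lost without regenerating replicate 2 and in the unscaled fit (-1.09, limma adjusted p = 0.0633). Named after its value was seen, dnajb2 had groups that did not overlap and a log2 change of -0.91 (SE 0.26). It narrowly did not pass (limma adjusted p = 0.0527), while the authors' deposited table lists it as lower (log2 fold change -1.28, adjusted p 0.00402). The most abundant, dnajb1b, a heat-inducible partner of HSP70, measured 276, 103 and 184 scaled FPKM in regenerating libraries, against 135, 108 and 203 in uninjured libraries, with wide and overlapping groups (log2 change 0.27, SE 0.37, limma adjusted p = 0.687). Among the cytosolic FK506-binding proteins, 2 of 6 rose, where 7.49% of all tested genes did. The row fkbp1ab measured 43.0, 42.2 and 39.3 scaled FPKM in regenerating libraries, against 7.96, 12.8 and 6.62 in uninjured libraries. Its paralog fkbp1aa measured 98.7, 57.7 and 91.0 scaled FPKM in regenerating libraries, against 37.7, 23.1 and 22.2 in uninjured libraries. Their product is a drug-binding protein that associates with ryanodine receptors, the calcium release channels of muscle. Neither had overlapping groups, and these paralogs, like those of serpinh1, may share reads. The changes were 2.12 (SE 0.27) and 1.54 (SE 0.30) (limma adjusted p = 0.00203 and 0.0121), and the call for fkbp1aa was lost without regenerating replicate 1. The HSP90 partner fkbp5, the most abundant of the role, measured 119, 67.1 and 111 scaled FPKM in regenerating libraries, against 125, 147 and 94.9 in uninjured libraries. Its groups overlapped, and its log2 change was -0.32 (SE 0.29) with the scaling and 0.29 without it (limma adjusted p = 0.524 and 0.617).

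**Figure D3:**
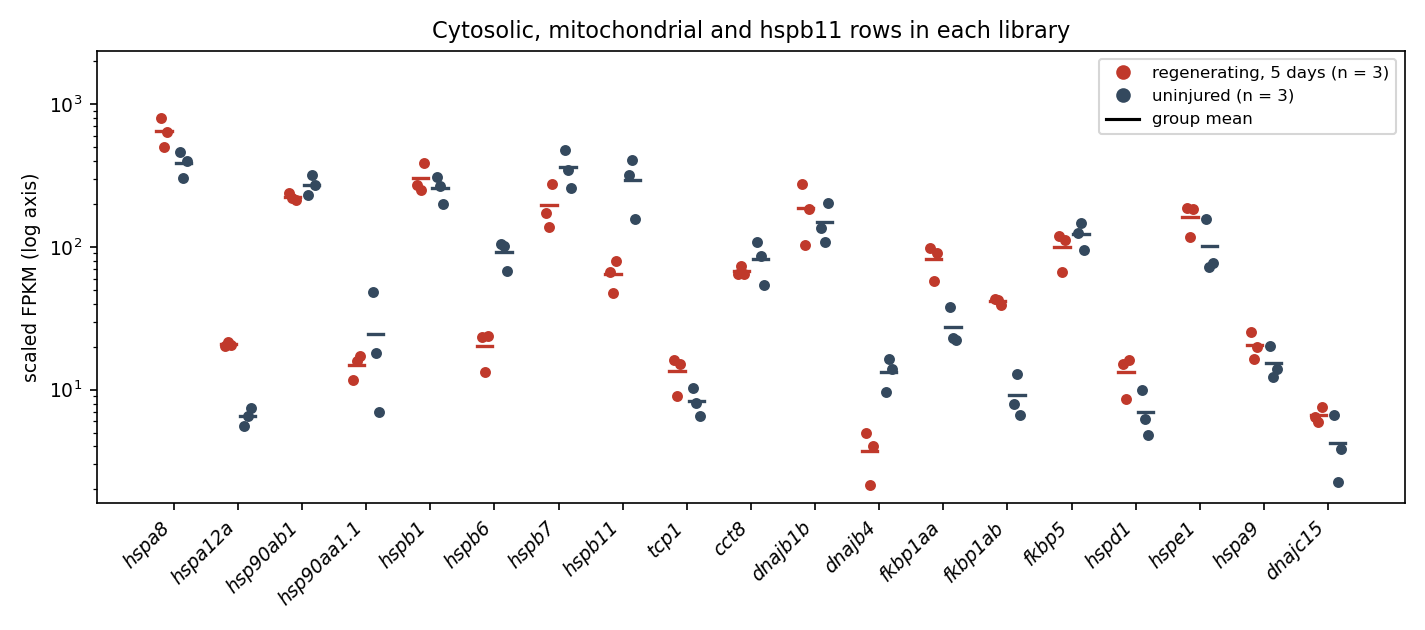
Scaled FPKM (y axis, log scale) of 14 cytosolic genes, the row hspb11 and 4 mitochondrial genes (x axis) in each regenerating library (left of each pair) and each uninjured library (right), with bars at group means (n = 3 each). The rows hspb6, hspb11 and dnajb4 are lower and hspa8, hspa12a, fkbp1aa and fkbp1ab higher in all regenerating libraries, and the 4 mitochondrial genes overlap. The separation of hspa8 is narrow, and its change did not pass.

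No mitochondrial chaperone passed, where 11.4% of all tested genes did. Of 10 members 8 were tested, 7 of them with changes above 0. With 8 genes, a count of none is near the share of all genes. At an unadjusted p below 0.05, for which no share of all genes was computed, 1 was higher by limma. The authors' deposited table also lists no mitochondrial member as changed at an adjusted p below 0.05, where 4.84% of its genes were higher and 4.62% lower. The HSP60 gene hspd1 (ENSDARG00000056160) measured 15.1, 8.63 and 16.03 scaled FPKM in regenerating libraries, against 9.89, 6.19 and 4.80 in uninjured libraries. Its partner hspe1, the HSP10 of the folding chamber, measured 187, 117 and 185 scaled FPKM in regenerating libraries, against 157, 72.2 and 77.2 in uninjured libraries. Uninjured replicate 1 lay within the regenerating range for both. Their changes were 0.85 (SE 0.33) and 0.73 (SE 0.34) (limma adjusted p = 0.137 and 0.202). The mitochondrial HSP70 gene hspa9 measured 25.2, 16.3 and 19.9 scaled FPKM in regenerating libraries, against 20.1, 12.2 and 13.9 in uninjured libraries (log2 change 0.39, SE 0.28, limma adjusted p = 0.399). The J-domain gene dnajc15, linked to the inner membrane import motor, measured 6.66 ± 0.841 scaled FPKM in regenerating and 4.23 ± 2.19 in uninjured libraries (SD, n = 3; limma adjusted p = 0.265). Without scaling, hspd1, hspe1, hspa9 and dnajc15 passed as higher, 4 of 8, where 23.6% of all genes did. Without uninjured replicate 1, 1 member passed as higher, where 8.08% of all genes did.

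Of the 16 members with no place in these compartments 11 were tested, and hspb11 was the 1 that passed. Over all tested genes 11.4% passed. The nuclear fkbp3 measured 41.2, 78.8 and 47.4 scaled FPKM in regenerating libraries, against 56.3, 72.0 and 47.4 in uninjured libraries, with overlapping groups and a log2 change of -0.10 with the scaling and 0.50 without it. The membrane-anchored fkbp8 averaged 1.35 ± 0.589 scaled FPKM in regenerating and 2.73 ± 1.22 in uninjured libraries (SD, n = 3; limma adjusted p = 0.261). In all, 13 members were too low to test, 1 of them in the endoplasmic reticulum (dnajb12b).

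The compartments were set against each other inside each library, where a factor common to all genes of a library nearly cancels. The mean log2(scaled FPKM + 1) of the 37 endoplasmic reticulum members minus that of the 54 cytosolic members was -0.31, 0.00 and -0.43 in regenerating libraries, against -1.13, -1.31 and -1.05 in uninjured libraries. The groups did not overlap, and they differed by 0.92. The same difference for mitochondrial minus cytosolic members was -1.03, -0.91 and -0.76 in regenerating libraries, against -1.03, -1.32 and -1.43 in uninjured libraries. Regenerating replicate 1 and uninjured replicate 1 were alike in it, and the groups differed by 0.36. With no filter and all 123 rows, endoplasmic reticulum members held 24.0%, 31.5% and 22.6% of the members' FPKM in regenerating libraries, against 11.2%, 10.6% and 11.9% in uninjured libraries. Cytosolic members held 68.0%, 59.6% and 68.2% in regenerating libraries, against 73.7%, 72.6% and 78.1% in uninjured libraries. These shares add up to a whole, and the summed levels differed from them. Endoplasmic reticulum members summed to 1137 ± 112 scaled FPKM in regenerating and 424 ± 39.6 in uninjured libraries. Cytosolic members summed to 2910 ± 593 scaled FPKM in regenerating and 2824 ± 230 in uninjured libraries (SD, n = 3 each), with overlapping groups. The cytosolic sums, shares and means leave out hspb11. That row averaged 64.5 ± 16.3 scaled FPKM in regenerating and 294 ± 127 in uninjured libraries (SD, n = 3 each). The sum with hspb11 was not computed. The fall of that row is larger than the difference between the mean cytosolic sums, so the order of those means depends on leaving it out. These contrasts, shares and sums are descriptions without a test, since the members were chosen with results known.

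**Figure D4:**
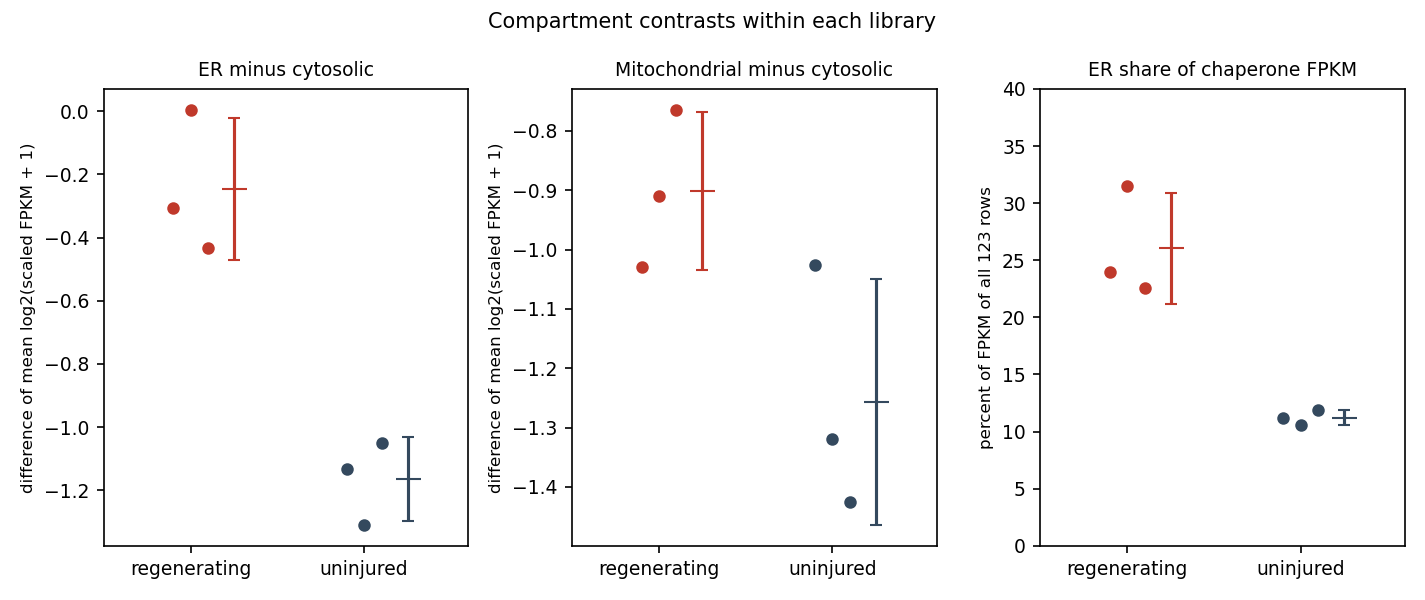
Mean log2(scaled FPKM + 1) of endoplasmic reticulum minus cytosolic members (left), of mitochondrial minus cytosolic members (middle), and the percentage of the FPKM of all 123 rows held by endoplasmic reticulum members (right), for each regenerating and uninjured library. Crosses with bars are mean ± SD (n = 3 each). The groups are separate in the left and right panels and touch in the middle one.

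Homologous chaperones of different compartments were also set against each other within each library. The level of hspa5 relative to hspa8 was 0.239, 0.260 and 0.178 in regenerating libraries, against 0.129, 0.148 and 0.121 in uninjured libraries. The level of hsp90b1 relative to hsp90ab1 was 0.242, 0.260 and 0.178 in regenerating libraries, against 0.0940, 0.0486 and 0.0543 in uninjured libraries. In both pairs the endoplasmic reticulum homolog was higher against its cytosolic relative in every regenerating library. For hspa9 relative to hspa8, a mitochondrial homolog, the ratio was 0.0315, 0.0328 and 0.0310 in regenerating libraries, against 0.0437, 0.0406 and 0.0351 in uninjured libraries, so this one was lower in every regenerating library, the opposite direction to the mean of mitochondrial minus cytosolic members. The pairs were chosen after their levels were seen. For each of these 3 ratios the two-sided exact permutation test gave p = 0.1, the lowest possible here. After Benjamini-Hochberg adjustment over the 8 ratios computed it was 0.114. The ratios of hyou1 to hspa4a, dnajb11 to dnajb1b and fkbp9 to fkbp5 gave the same p-values and were higher in every regenerating library. These separations depend on the partner chosen. Other cytosolic relatives, hspa4b, dnajb1a and fkbp1ab, were themselves higher in every regenerating library, with log2 changes of 0.84, 1.05 and 2.12. Ratios to them were not computed. The ratio of calr3a to calr, both of the endoplasmic reticulum, overlapped between groups (exact permutation p = 0.9, and 0.9 adjusted).

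Genes of collagen modification, processing and transport rose in 6 of 17 tested, with a median log2 change of 1.13 and none lower. Over all genes 7.49% were higher and 3.93% lower. The lysyl hydroxylase gene plod2 measured 122, 79.6 and 127 scaled FPKM in regenerating libraries, against 11.4, 11.1 and 12.5 in uninjured libraries (log2 change 3.10, SE 0.25, limma adjusted p = 0.000261). The proline isomerase gene ppib, whose protein works in a complex on procollagen, measured 333, 388 and 308 scaled FPKM in regenerating libraries, against 90.8, 82.5 and 81.7 in uninjured libraries (log2 change 2.00, SE 0.22, limma adjusted p = 0.00105). Both were higher in every regenerating library by a wide margin. The fibroblast and epicardial markers, 9 of 10 higher with a median of 2.97, moved with this list too, and their part in it was not tested. Of 21 genes of endoplasmic reticulum degradation and oxidation, 2 rose and 1 fell, with a median of 0.56. The disulfide enzyme gene txndc5 measured 66.0, 62.3 and 60.6 scaled FPKM in regenerating libraries, against 25.95, 15.2 and 21.1 in uninjured libraries (log2 change 1.59, SE 0.25, limma adjusted p = 0.00519), and the segregase gene vcp rose by 1.13 (SE 0.22) (limma adjusted p = 0.0133). The degradation factor derl3 fell, at 0.902 ± 0.231 scaled FPKM in regenerating and 2.62 ± 0.509 in uninjured libraries (SD, n = 3), a low level, and did not pass without scaling (limma adjusted p = 0.0446 scaled and 0.142 unscaled).

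The list of the unfolded protein response holds both the sensors and factors that induce BiP when the endoplasmic reticulum is overloaded and target genes of the response. It leaves out the chaperone members themselves, so the BiP gene hspa5, which rose, is not counted in it. Levels of transcripts were measured, not the activity of the sensors and factors. Of its 22 tested genes 1 rose and 1 fell, and the median log2 change was -0.04, where 7.49% of all genes were higher and 3.93% lower. The transcription factor gene xbp1, named with the next 6 genes after values were seen, measured 70.4, 59.2 and 54.3 scaled FPKM in regenerating libraries, against 67.2, 86.6 and 84.8 in uninjured libraries. Its groups overlapped (log2 change -0.37, SE 0.23, limma adjusted p = 0.336; 0.24 without scaling). The changes of atf6, atf4a, atf4b and ddit3 were 0.05 (SE 0.32), 0.05 (SE 0.27), -0.32 (SE 0.26) and 0.25 (SE 0.24), and none passed. The change of atf4b was 0.29 without scaling. The list's highest change was that of the target gene creld2, at 1.85 (SE 0.54) with the scaling and 2.37 without it (limma adjusted p = 0.0547 and 0.00691). The sensor gene eif2ak3 had a change of 0.92 (SE 0.31) with the scaling and 1.45 without it (limma adjusted p = 0.0917 and 0.0101). Both passed without scaling. The riser was manf, a secreted factor of the stressed endoplasmic reticulum, at 40.9, 34.1 and 24.5 scaled FPKM in regenerating libraries, against 19.9, 11.9 and 14.7 in uninjured libraries (log2 change 1.05, SE 0.29, limma adjusted p = 0.0424). The gene that fell was chac1, a glutathione-degrading enzyme induced by the atf4 branch, at 89.7, 97.2 and 75.9 scaled FPKM in regenerating libraries, against 169, 149 and 175 in uninjured libraries (log2 change -0.90, SE 0.22, limma adjusted p = 0.0289). Its groups were well apart, but without scaling its change was -0.29 (limma adjusted p = 0.480).

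Among 29 heat shock factors and co-chaperones tested, 2 rose, none fell and the median log2 change was 0.23, where 7.49% of all genes were higher. Both risers, hsbp1b at 1.15 (SE 0.28) and hsbp1a at 1.42 (SE 0.35), encode proteins that bind heat shock factor trimers (limma adjusted p = 0.0291 and 0.0293). The master factor gene hsf1, named after its value was seen, had a log2 change of -0.48 (SE 0.25) with the scaling and 0.06 without it (limma adjusted p = 0.251 and 0.916). Prefoldin hands actin and tubulin to CCT, and tubulin cofactors act on tubulin that CCT has folded. Of 12 such genes pfdn6, a prefoldin subunit, rose, at 38.8, 36.3 and 34.1 scaled FPKM in regenerating libraries, against 15.0, 7.34 and 8.95 in uninjured libraries (log2 change 1.77, SE 0.28, limma adjusted p = 0.00556), and 11 did not pass. None of the 22 tested genes of mitochondrial proteostasis passed, and their median change was 0.16. Over the 6 lists together, 12 of 123 tested genes rose (9.76%) and 2 fell (1.63%), beside 7.49% and 3.93% of all genes. Leaving out regenerating replicate 1 or 3 left 5 risers each, and leaving out regenerating replicate 2 left 7. Calls over all genes dropped as well in these fits, where 2.02%, 3.11% and 2.99% were higher without regenerating replicates 1, 3 and 2. The 2 genes that fell did not pass without any 1 regenerating library or without uninjured replicate 3. In those fits 1.08% to 2.59% of all genes were lower.

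**Figure D5:**
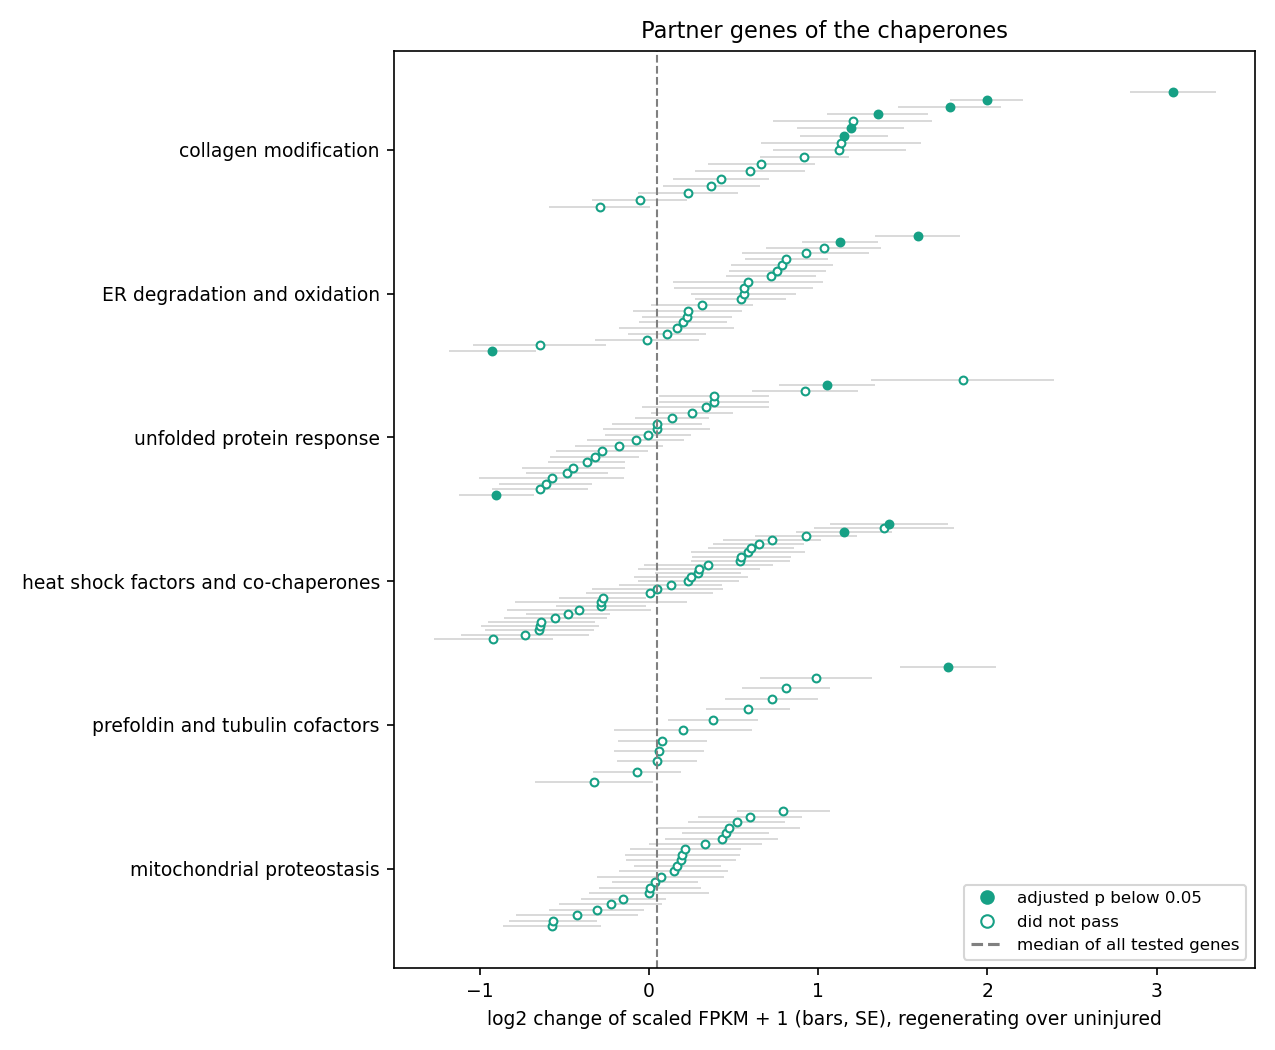
Log2 change with SE, regenerating over uninjured, of each tested partner gene (x axis) in 6 lists (y axis). Filled points passed an adjusted p of 0.05 and the dashed line is the median of all tested genes at 0.05. The collagen modification list reaches 3.10 at plod2, while the unfolded protein response list is spread on both sides of the line.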

How the data were processed

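Expression was measured by RNA sequencing in 6 libraries, 3 regenerating and 3 uninjured, grouped by sample title. The submitters' processing notes name the build GRCz10, the aligner STAR 2.5.3a, the quantifier RSEM 1.3.0, R 3.3.3 and DESeq2. The authors deposited log2 FPKM per library, per the file headers, with an offset of 0.1 that the values show. They also deposited for each gene a mean normalised count over all libraries (a signal averaged over samples, per the file headers), a log2 fold change, a p-value and an adjusted p. Counts and depth are not given in the sources used here.

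The log2 was undone and 0.1 subtracted. A median ratio taken from the 8963 genes that exceeded 1 FPKM in every library scaled each one. Genes above 1 FPKM in at least 3 libraries (13363) were fitted as log2(scaled FPKM + 1) by limma 3.58.1 (R 4.3.3) with group as the only term and a variance trended on intensity. This scale understates the change of low genes. Tests were two-sided, with Benjamini-Hochberg adjustment over all tested genes and a threshold of 0.05. The fit was tested on simulated data with independent errors and log2 changes of 2 or 3 in either direction. Smaller changes and changes in low genes were not covered. The members, the compartment table and the lists were chosen with earlier results of these data known. Genes were named by a rule: a fixed set, and in each role the most abundant member and up to 4 in each direction with the smallest p among those that passed. For each partner list it named up to 2 in each direction. Other genes given with values, among them hspa13, pdia2, fkbp10a, dnajb9a, dnajb9b, hsp90aa1.2 and unc45b, were chosen after their values were seen. The rule for members is case-sensitive and leaves out 2 rows in capitals, HSPB11 and DNAJA4. Alternatives were other scalings, pseudocounts, filters, a replicate block, no trend and leaving out each library. No sequences are shown.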

Additional observations from a re-analysis of the deposited data

How the results depend on the processing

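Without scaling, 46 members were higher (21 with it), and 13 cytosolic members were higher and 1 lower (3 and 2 with it). In the same unscaled fit 4 mitochondrial members were higher (0 with scaling), and 41 partner genes were higher and 0 lower (12 and 2 with scaling). Over all genes 23.6% were higher and 1.5% lower in that fit, beside 7.49% and 3.93% with scaling. The lower partner genes numbered 1 with a pseudocount of 0.1, 1 with no filter, 1 with a filter on a mean above 5 FPKM and 0 with the replicate block. That stricter mean filter also moved the contrast of endoplasmic reticulum minus cytosolic members from a group difference of 0.92 to 1.31, and that of mitochondrial minus cytosolic members from 0.36 to 0.58. For these moves the cause was not tested. Same-numbered libraries did not deviate together (correlations across genes of -0.013, -0.0046 and -0.062), so the numbers give no pairing. With the replicate block 20 members were higher and 3 lower, 17 of the higher ones in the endoplasmic reticulum. Leaving out each library in turn, members that rose numbered 8 to 25 and those that fell 2 to 3. The ranges were 6 to 19 higher and 0 to 0 lower for the endoplasmic reticulum, 2 to 5 higher and 1 to 2 lower for the cytosol, 0 to 1 higher and 0 to 0 lower for mitochondria, and 5 to 12 higher and 0 to 3 lower for partner genes. The group differences of the contrasts ranged from 0.82 to 1.03 and from 0.27 to 0.47. Over all genes the higher calls numbered 249 to 1056 in these smaller fits, fewer than 1001 in 5 of 6 and more without uninjured replicate 1. No named gene changed sign while passing the threshold in either fit. Counts per library are not known, so members below about 1 FPKM cannot be read.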
